A study of Homo sapiens with 24 samples.

Results

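PDX1, NKX6-1, MNX1 and PTF1A are transcription factor genes of the developing pancreas. PDX1 marks the pancreatic domain of the gut endoderm and later maintains beta cells, MNX1 acts early in the dorsal pancreatic bud and again in beta cells, PTF1A sets up the multipotent and later the exocrine progenitors, and NKX6-1 steers progenitors towards the endocrine and beta cell fate. N6-methyladenosine (m6A) is the most common internal modification of mRNA. It is written by a methyltransferase complex mostly at a short consensus, is removed by demethylases such as ALKBH5, and is read by proteins that can change the stability and translation of the transcript.

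The m6A peaks of these 4 genes were taken from 6 peak lists by the Ensembl gene identifiers given with each peak. They numbered 47 of the 228472 peaks in the lists. None was found in human pluripotent stem cells (hPSC), 3 in definitive endoderm (DE), 11 in pancreatic progenitors (PP), 8 in human islet-like organoids (hILO), 12 in wild-type pancreatic progenitors of a second experiment (WT PP) and 13 in progenitors without ALKBH5 (A5-KO PP). By gene, 20 peaks belonged to MNX1, 13 to NKX6-1, 12 to PDX1 and 2 to PTF1A. No peak carried the identifier of a further gene. MNX1 alone had peaks in DE, and PTF1A had peaks in WT PP and A5-KO PP only.

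The 24 libraries came from MEL1, a human embryonic stem cell line that the methods of the study name as MEL1 INSGFP/W, a reporter with GFP at the insulin locus, and from its derivatives made by stepwise differentiation with activin A, KGF, retinoic acid and EGF, among other agents. Each of the 6 populations had 2 libraries of RNA precipitated with an m6A antibody (IP) and 2 libraries of the fragments before precipitation (input). The first 4 populations were wild type and of batch 1, made from mRNA with a SYSY antibody. WT PP and A5-KO PP were of batch 2, made from total RNA with a Millipore antibody, another library kit and depletion of rRNA from the input. The knockout was made with CRISPR-Cpf1 indels in the first exon of ALKBH5 and was an edited line grown from picked colonies. Days of harvest were not given in the labels.

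Each list gives pooled values for a population, so that a peak has 1 IP count, 1 input count and 1 log2 enrichment of IP over input, as exomePeak2 estimated it with a correction for GC content. No spread between replicates could therefore be computed and no test across populations was made. The error given here is the counting error of the log2 enrichment from the IP and input reads of the peak, with its 95% range. It leaves out the variation between cultures, and its range can be too narrow. The NKX6-1 peak of WT PP from 84497890 had 0.93 with a counting error of 0.052, but a deposited p of 0.0096 from exomePeak2. A further estimate, the log2 ratio of the counts plus 1 constant offset per list, carries no GC correction and is given where it differs, for single pairs and for the summed counts of a gene (gene level). A difference between lists was counted as past the fold when it reached 1 on the log2 scale. A gene without a peak in a list has no read count there. The lists hold peaks with an adjusted p of up to 0.05 from exomePeak2. For peak calling the study states a cutoff of p below 1e-05.

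The lists rest on 6987612 to 28463998 input reads and 30723097 to 79822815 IP reads in peaks. Median log2 enrichments ranged from 1.53 to 1.74 in the stages, and batch 2 stood apart with 3.65 for WT PP and 4.31 for A5-KO PP, so levels were compared within a batch. SOX17, CXCR4 and FOXA2 all had peaks in DE but also in both lists of batch 2, and 2 of the 3 had them in PP and hILO. SOX9 and ONECUT1 had them in every list but DE, with 36609 IP reads in PP against 1601 in hPSC, and 5 of 5 endocrine markers (INS, GCG, SST, NEUROD1 and CHGA) had them in hILO, against 1 or 2 of them in each other list. The 3 hepatic markers ALB, AFP and APOA1 also had peaks in hILO, with 97965 IP reads in all, against 1336 in DE, 141 in WT PP, 207 in A5-KO PP and none in hPSC and PP. Their part in the hILO results was not tested. SOX2 had no peak in any list. POU5F1 had 114 IP reads in hPSC and 1621 in DE, and NANOG had 1297 and 801. ALKBH5 had 289 input reads in its peaks in WT PP but 1 in A5-KO PP, and its IP reads numbered 836 and 592. Read counts followed the stretch they were counted on only in part. For the 2075 pairs of peaks of any gene that covered identical bases in DE and PP, Spearman's rho of input reads was 0.19 across peaks, which share libraries and are not replicates. It was 0.45 over 2770 pairs for hPSC and DE, 0.20 over 2114 pairs for PP and hILO, and 0.31 over 3585 pairs for WT PP and A5-KO PP. The median input of peaks of over 400 to 1000 nt was between 1.22 times (hILO) and 2.66 times (hPSC) that of peaks of at most 100 nt, with 110 against 75 reads in PP, while their median length was at least 7 times greater. Input reads in peaks are therefore given as the depth behind a value and not as the level of a transcript.

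Across all 6 lists the peaks held 34 of the 52 GGAC sites followed by A, C or T on the exons of the 4 genes. They are 3 of the 18 words of the m6A consensus DRACH, where D stands for any base but C, R for a purine and H for any base but G. The following windows of 25 bases on the transcript strand of GRCh38 are shown because they lie in the stretches that the comparisons below turn on. Capitals mark the consensus, with the adenosine in its middle.

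PDX1 CDS at the end of the homeobox, in PP, hILO, WT PP and A5-KO PP, chr13:27924454-27924478, plus strand: aaaaggaggaGGACAagaagcgcgg
PDX1 CDS, in hILO, WT PP and A5-KO PP, chr13:27924514-27924538, plus strand: agcctgagcaGGACTgcgccgtgac
PDX1 3′UTR, in PP, hILO, WT PP and A5-KO PP, chr13:27925014-27925038, plus strand: ctccaccttgGGACCtgtttagaga
PDX1 end of the 3′UTR, in PP, WT PP and A5-KO PP, chr13:27925853-27925877, plus strand: ggagaaagatGGACCcctgggtgac
NKX6-1 CDS of exon 3, in PP, hILO and WT PP, chr4:84493461-84493485, minus strand: agaagaagcaGGACTcggagacaga
NKX6-1 3′UTR, in PP, hILO, WT PP and A5-KO PP, chr4:84492662-84492686, minus strand: ataaaaagatGGACTttcttccttc
NKX6-1 CDS of exon 1, in WT PP, chr4:84497740-84497764, minus strand: gctgctggccGGACTgccacgcttt
MNX1 CDS of exon 3, in DE, PP, hILO and A5-KO PP, chr7:157005665-157005689, minus strand: gccgcctgcgGGACTtgagggacag
MNX1 CDS of exon 3, in DE, PP, hILO and A5-KO PP, chr7:157005617-157005641, minus strand: aggacgacgaGGACCatttccccta
MNX1 5′UTR, in PP, WT PP and A5-KO PP, chr7:157010506-157010530, minus strand: ggaggcgccgGGACCatggtcaccc
MNX1 exon outside the principal isoform, in WT PP, chr7:157008840-157008864, minus strand: tggcacacgcGGACTctccgggctg
PTF1A CDS of exon 2, in WT PP and A5-KO PP, chr10:23193741-23193765, plus strand: tcccctagcaGGACActctctctca
PTF1A CDS of exon 2, in WT PP, chr10:23193757-23193781, plus strand: tctctctcatGGACTgatgaaaaac

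**Figure D1:**
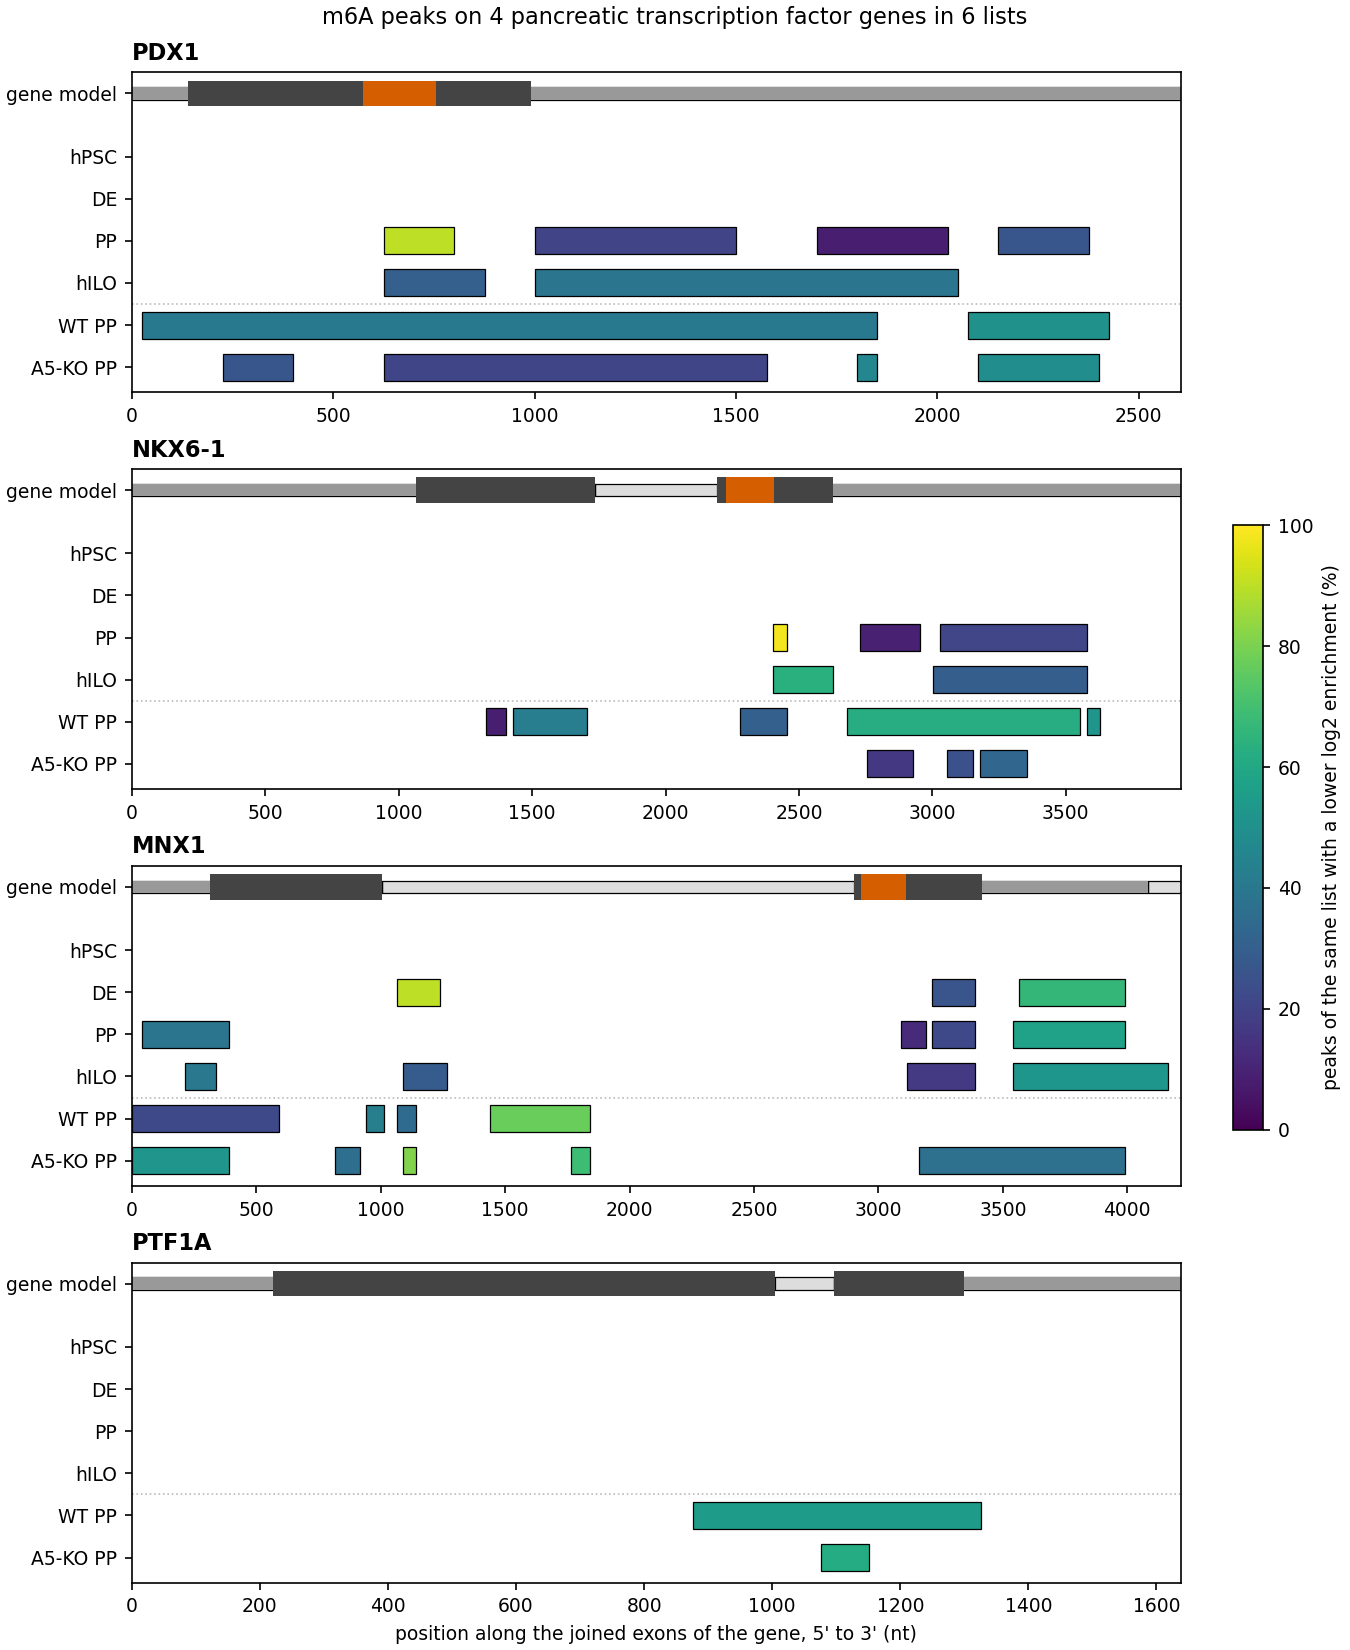
Peaks of each gene in the 6 lists along the joined exons of all its transcripts, 5′ to 3′ in nt, coloured by the percentage of peaks of the list with a lower log2 enrichment, with a dotted line between the batches and a gene model (CDS dark, UTRs grey, homeobox orange, exons of other transcripts pale). No gene has a peak in hPSC, the 3′ end of MNX1 is covered in DE, PP, hILO and A5-KO PP but not in WT PP, and exon 1 of NKX6-1 is covered in WT PP alone.

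MNX1 (ENSG00000130675, chromosome 7, 156994051 to 157010663, minus strand) was the first of the genes to carry m6A peaks. DE had 3. The peak in the 3′UTR from 157004947 to 157005371 had 115 input and 368 IP reads and a log2 enrichment of 1.964 (95% counting range 1.66 to 2.27). The peak in the CDS of exon 3 from 157005547 to 157005721 had 58 input reads and 1.39 (0.99 to 1.80). The highest, from 157009201 to 157009375 in an exon outside the principal isoform, had 2.54 but only 8 input reads (1.51 to 3.57). None of the 3 was shared with hPSC, where MNX1 had no peak, while 64.7% of all DE peaks were.

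The 3′ peaks of MNX1 were found again in PP at much greater depth. The 3′UTR peak from 157004947 to 157005396 had 2202 input and 13779 IP reads and a log2 enrichment of 1.77 (1.70 to 1.83), and the CDS peak had the same ends as in DE, with 804 input and 10005 IP reads and 1.21 (1.11 to 1.31). Against DE these differed by −0.20 (95% range −0.50 to 0.11) and −0.18 (−0.60 to 0.23), both within their counting range. With 1 offset per list they were 0.21 and 0.53 and so of the other sign, and the gene level differed by 0.08 (−0.16 to 0.32). Neither pair reached the fold, which 7.35% of all 16565 pairs reached upwards and 8.21% downwards from DE to PP. These were the only member peaks of PP shared with DE, 2 of 11, against 57.0% of all PP peaks.

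PP had 2 further MNX1 peaks. A CDS peak from 157005747 to 157005846, which covered 21 nt of the homeobox, had 1747 input reads and a log2 enrichment of 1.03 (0.96 to 1.10). A peak over the 5′UTR and the start of the CDS from 157010275 to 157010624 had 278 input reads and 1.46 (1.28 to 1.64). In hILO all 3 regions were present, at 1.57 (1.503 to 1.63) in the 3′UTR, 1.01 (0.91 to 1.10) in the CDS of exon 3 and 1.38 (1.13 to 1.62) at the 5′ end, and a peak from 157009176 to 157009350 lay where DE had its own outside the principal isoform, at 1.21 (0.99 to 1.42) with 243 input reads. The hILO peak in the 3′UTR reached over a splice junction into a distal exon of other transcripts, from 156994101 to 157005396 with 625 exonic nt. From PP to hILO the 3 overlapping pairs differed by −0.20 (−0.29 to −0.11) in the 3′UTR, −0.20 (−0.34 to −0.06) in the CDS and −0.08 (−0.39 to 0.22) at the 5′ end. The first 2 were lower in hILO by more than the counting range but by less than the fold. With 1 offset per list the values were −0.58, −1.67 and −1.07, the last 2 past the fold, and the gene level was −0.80 (−0.87 to −0.73).

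PDX1 (ENSG00000139515, chromosome 13, 27920000 to 27926313, plus strand), with its homeobox in exon 2, had peaks from PP onwards. PP had 4, all in exon 2. The CDS peak from 27924336 to 27924510 covered 129 of the 180 nt of the homeobox and had the highest log2 enrichment, 2.60 (2.15 to 3.06), above 89.9% of the peaks of PP, with 40 input and 670 IP reads. The 3 peaks of the 3′UTR had lower values, 1.18 (1.06 to 1.30) from 27924711 to 27925210, 0.95 (0.87 to 1.02) from 27925411 to 27925735 and 1.28 (1.02 to 1.54) from 27925861 to 27926085, on 695, 1769 and 150 input reads. None of the 4 was shared with DE, which had no PDX1 peak.

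In hILO the CDS peak of PDX1 began at the same base and ran to 27924585. It had 2891 input and 9153 IP reads and a log2 enrichment of 1.22 (1.16 to 1.28), lower than in PP by −1.38 on the log2 scale (95% range −1.84 to −0.92). This was the only one of the 6 member pairs from PP to hILO that reached the fold downwards, which 13.2% of all 14363 pairs did. None reached it upwards, against 4.11% of all pairs. The hILO peak of the 3′UTR from 27924711 to 27925760, of 1050 nt, had 1.36 (1.28 to 1.44) and was 0.17 higher (0.03 to 0.32) than the PP peak with which it shared most bases, but −0.21 with 1 offset per list. It spanned 2 of the 3 PP peaks, and the third at the end of the 3′UTR had no counterpart in hILO. The difference of the CDS peak rests on the 40 input reads of PP, and at gene level hILO was 0.079 above PP (0.00061 to 0.16).

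NKX6-1 (ENSG00000163623, chromosome 4, 84491985 to 84499292, minus strand) also had peaks from PP onwards. Of the 11 member peaks of PP its CDS peak of 50 nt in exon 3, from 84493462 to 84493511 with the last 4 nt of the homeobox, had the highest log2 enrichment, 3.34 (3.22 to 3.46), above 98.2% of the peaks of the list. It held 575 input and 6042 IP reads and the GGACT site shown above. Of PP peaks of the same length 16.2% hold a GGAC site followed by A, C or T. In the 3′UTR, PP had peaks of 0.96 (0.89 to 1.03) from 84492962 to 84493186 on 1849 input reads and of 1.19 (0.80 to 1.58) from 84492337 to 84492886 on 65.

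In hILO the CDS peak of NKX6-1 ran from 84493287 to 84493511, ending 2 nt into the 3′UTR, and its log2 enrichment was 1.75 (1.66 to 1.84) on 1374 input reads. It contained the 50 nt of the PP peak but, at 225 nt, was not covered by it beyond 50% and so was not counted as shared. The 3′UTR peak from 84492337 to 84492911 was shared, at 1.22 (1.03 to 1.41) against 1.19, a difference of 0.02 (−0.41 to 0.46) that rests on the 65 input reads of PP. With 1 offset per list it was −0.31, and the gene level of NKX6-1 was −0.68 (−0.78 to −0.58). The nearer 3′UTR peak of PP had no counterpart in hILO. In all, 6 of 8 member peaks of hILO were shared with PP, 2 of 2 of PDX1, 3 of 4 of MNX1 and 1 of 2 of NKX6-1, against 45.6% of all hILO peaks. Under reciprocal overlap 4 of 8 were shared, against 37.4%.

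Most member peaks of PP and hILO lay low in their lists. Only 3 of 11 in PP and 2 of 8 in hILO, against 2 of 3 in DE, had a log2 enrichment above the list median, and the members' medians in PP and hILO were 1.21 and 1.29 against 1.64 and 1.53 over all peaks. Their depth was greater, with median input reads of 695 in PP and 1296 in hILO against 87 and 302. Their GC content was higher too, with medians of 58.2% and 63.1% against 46.9% and 46.0%, and the deposited enrichment carries a correction that depends on GC content. The part of either in the low values was not tested. When the ratio of the counts was used with 1 offset per list, all 6 pairs from PP to hILO were lower in hILO, with a median difference of −0.83, where the deposited values gave −0.14.

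Reads in the peaks of a gene were scaled to 1000000 reads in all peaks of the list. For MNX1 the scaled IP value went from 23.8 in DE to 1171 in PP, then 154 in hILO. That of NKX6-1 was 527 in PP and 61.0 in hILO, and that of PDX1 was 353 and 176. The values of all 3 genes were thus highest in PP among the stages. Input moved in the same order. It was 720 in PP and 148 in hILO for MNX1, 356 and 59.3 for NKX6-1, and 380 and 161 for PDX1. These are sums over called peaks that differ in number and length between lists, and they are not read as transcript levels. In any value of mixed cells, fewer cells of a type and less RNA per cell cannot be told apart.

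To describe the loss of ALKBH5, A5-KO PP was compared with WT PP. The 13 member peaks of A5-KO PP lay mostly within those of WT PP, with 11 of 13 shared, against 46.8% of all A5-KO PP peaks. Counted from the other side, 5 of 12 WT PP peaks were shared with A5-KO PP, against 50.0% of all WT PP peaks. Under reciprocal overlap 4 of 13 and 4 of 12 were shared, against 30.9% and 39.4% of all peaks, so that the members' share was then near that of all A5-KO PP peaks and below that of all WT PP peaks. The member peaks of WT PP were longer, with a median of 312.5 nt against 175 nt in A5-KO PP. Over all peaks the median was 175 nt in both lists. Of the 11 pairs, 3 reached the fold upwards in A5-KO PP, as did 38.0% of all 25833 pairs, and 4 reached it downwards, as did 28.9%. With 1 offset per list 5 were higher by the fold, against 41.9% of all pairs, and 3 lower, against 20.5%. The 3 NKX6-1 pairs share 1 WT PP peak and 3 PDX1 pairs share another, so the 11 pairs are not all separate observations. All 4 deposited differences lower by the fold lay among these pairs. The shares over all pairs include peaks with few or no input reads. The direction differed between the genes. PTF1A and the 5′ end of MNX1 were higher in A5-KO PP, all 3 NKX6-1 pairs were lower, and PDX1 had values on both sides. The median difference of the member pairs was 0.37, the value of the MNX1 pair from 157008601, against 0.24 over all pairs.

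PTF1A (ENSG00000168267, chromosome 10, 23192312 to 23194245, plus strand), a basic helix-loop-helix factor, had 1 peak in each of these lists. In WT PP it ran from 23193187 over the intron to 23193933, with 450 exonic nt over the end of exon 1, 92 nt outside the principal isoform, the CDS of exon 2 and 27 nt of the 3′UTR. It had 240 input and 929 IP reads and a log2 enrichment of 3.90 (3.70 to 4.11). In A5-KO PP the peak from 23193404 to 23193758 covered 75 exonic nt within it, with 165 input and 1152 IP reads and 5.05 (4.82 to 5.29). The difference was 1.15 (95% range 0.84 to 1.46), and 1.35 with 1 offset per list. Since the A5-KO PP peak covered 16.7% of the WT PP peak, the 2 values describe stretches of unequal length.

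The highest MNX1 values lay in batch 2, whose list medians are higher too. In WT PP the peak from 157008601 to 157009000, in the first intron of the principal isoform and an exon of other transcripts, had 1019 input and 10958 IP reads and a log2 enrichment of 5.25 (5.16 to 5.35). In A5-KO PP the last 75 nt of this stretch formed a peak, from 157008601 to 157008675, with 667 input and 4815 IP reads and 5.62 (5.50 to 5.74). The difference of 0.37 (0.22 to 0.52) became −0.078 with 1 offset per list. GC content was 42.7% in the short peak and higher in the long. No stage of batch 1 had a peak there.

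At the 5′ end of MNX1 the difference was larger. The WT PP peak from 157010075 to 157010663 had 308 input and 788 IP reads and a log2 enrichment of 2.04 (1.85 to 2.23), and the A5-KO PP peak from 157010275 to the same end had 94 and 1218 reads and 4.46 (4.15 to 4.76). The WT PP peak has an exomePeak2 p of 1.71e-05, above the study's stated cutoff of 1e-05. A5-KO PP was 2.42 higher (95% range 2.06 to 2.77), and 2.83 higher with 1 offset per list. This was the highest value among the 9 member pairs whose peaks both had 50 input reads or more, and 75.6% of all pairs had a lower one. In the exon outside the principal isoform near 157009301, WT PP had 2.82 (2.45 to 3.20) on 70 input reads. A5-KO PP had 60 IP reads and no input read there, so that its deposited 8.40 is not a bound. Peaks without input reads made up 24.6% of all A5-KO PP peaks and 11.5% of all WT PP peaks, against at most 0.18% in batch 1. With 3 input reads put in place of 0 and 1 offset per list, A5-KO PP would be 2.80 higher on the log2 scale, a value that takes all other counts as exact.

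The lists also differed in which parts of MNX1 they covered. The stretch over the end of the CDS and the 3′UTR was a peak in A5-KO PP from 157004947 to 157005771, of 825 nt, with 164 input and 568 IP reads and a log2 enrichment of 3.47 (3.22 to 3.72). No WT PP peak overlapped it, although 600 nt of it were covered in DE, PP and hILO as well. A5-KO PP had a further peak in the CDS of exon 1 from 157009750 to 157009849 on 15 input reads, at 3.38 (2.62 to 4.13). WT PP had a peak at the end of exon 1 from 157009426 to 157009724, at 3.27 (2.98 to 3.57) on 111 input reads, which A5-KO PP lacked. Summed over its peaks, MNX1 had 1508 input and 12567 IP reads in WT PP and 940 and 6808 in A5-KO PP, and the gene level differed by 0.29 (0.17 to 0.42).

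NKX6-1 was lower in A5-KO PP in every pair. WT PP had 1 long 3′UTR peak from 84492362 to 84493236, of 875 nt, with 115 input and 641 IP reads and a log2 enrichment of 4.28 (4.00 to 4.57). The 3 peaks of A5-KO PP all lay inside it, with 1.61 (1.43 to 1.80) from 84492987 to 84493161, 2.50 (1.98 to 3.02) from 84492762 to 84492861 and 3.16 (2.84 to 3.49) from 84492562 to 84492736. They were lower by −2.67 (−3.01 to −2.33), −1.78 (−2.37 to −1.19) and −1.12 (−1.55 to −0.68), and with 1 offset per list by −1.56, −1.25 and −1.499. The first 2 have exomePeak2 p-values of 0.00027 and 0.0023, above the study's stated cutoff of 1e-05. The 3 share a single WT PP peak and are not separate observations. Their input reads numbered 417, 47 and 128, and the first and the last exceed the 115 of the longer WT PP peak that contains them. At gene level the difference was smaller, −0.41 (−0.57 to −0.24).

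WT PP had 4 NKX6-1 peaks without a counterpart in A5-KO PP. Only that from 84497590 has an exomePeak2 p below the study's stated cutoff of 1e-05. In the CDS of exon 1, upstream of the homeobox, the peak from 84497590 to 84497864 had 913 input and 4235 IP reads and a log2 enrichment of 3.23 (3.13 to 3.34), and its neighbour from 84497890 to 84497964 had 0.93 (0.83 to 1.03) on 1451 input reads, with a deposited adjusted p of 0.011 from exomePeak2. A peak from 84493462 to 84495758 spanned the junction of exons 2 and 3 and covered 129 nt of the homeobox, at 2.58 (2.27 to 2.88). A peak of 50 nt at the distal 3′UTR from 84492287 to 84492336 had 3.77 (3.44 to 4.09). In base terms the 450 nt covered in A5-KO PP were 31.0% of the 1450 nt covered in WT PP. The CDS site GGACT of exon 3, covered in PP, hILO and WT PP, was in no A5-KO PP peak. On the same scale NKX6-1 had 117 IP reads in WT PP against 21.0 in A5-KO PP, and its input went from 144 to 46.6.

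PDX1 showed no common direction. A peak of WT PP from 27920025 to 27925560 covered 1825 exonic nt, from the 5′UTR through the whole CDS into the 3′UTR, with 580 input and 1551 IP reads and a log2 enrichment of 3.16 (3.02 to 3.30). A5-KO PP had 3 peaks inside it. That in the CDS of exon 1 from 27920225 to 27920399 had 2.68 (2.58 to 2.78) on 1081 input and 4139 IP reads, that from 27924336 to 27925285 over the homeobox, the stop codon and the 3′UTR had 2.12 (1.99 to 2.25), and that from 27925511 to 27925560 had 4.05 (3.77 to 4.33). The differences were −0.48 (−0.65 to −0.31), −1.04 (−1.23 to −0.85) and 0.89 (0.58 to 1.21). For the peak in exon 1, which had 78.9% GC, the value turned to 1.02 with 1 offset per list, while the second became −0.63 and so missed the fold and the third became 1.12 and reached it. That peak also had more reads on 175 nt than the WT PP peak on the 1825 nt around it.

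The peak at the end of the PDX1 3′UTR gave the closest match of stretches. It ran from 27925786 to 27926135 in WT PP and from 27925811 to 27926110 in A5-KO PP, which is 85.7% of the former. The log2 enrichment was 3.66 (3.53 to 3.79) on 675 input reads and 4.24 (4.08 to 4.40) on 435, a difference of 0.58 (0.37 to 0.78) and of 0.75 with 1 offset per list. It exceeded the counting range and stayed under the fold. At gene level PDX1 was 0.61 higher in A5-KO PP (0.49 to 0.72). Its reads in peaks were 54.6 IP and 65.9 input on that scale in WT PP and 182 and 196 in A5-KO PP. Whether any of these differences exceeds the variation between cultures was not tested.

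Where both peaks of a pair had 50 or more input reads, 9 member pairs remained. Of these, 2 were higher by the fold (MNX1 at the 5′ end and PTF1A), as were 22.7% of the 9263 such pairs of all genes, and 3 were lower (2 of NKX6-1 and 1 of PDX1), as were 21.4%. The median was 0.37, against 0.0049 over all such pairs. It is the value of 1 pair, that of MNX1 from 157008601. This pair sets 75 nt against 400 nt and became −0.078 with 1 offset per list. Only 4 of the 11 pairs had a shared stretch above 50% of both peaks. They were the 3′UTR end of PDX1, the 5′ end of MNX1, the MNX1 peak without input reads and the PDX1 peak of 950 nt.

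The same progenitor stage in the 2 batches shared 7 of 11 member peaks counted from PP, against 57.9% of all PP peaks, and 3 of 12 counted from WT PP, against 22.4%. Under reciprocal overlap 3 were shared from either side, against 24.3% and 16.4%, and with any overlap 8 of 11 and 5 of 12, against 63.3% and 35.5%. All 3 NKX6-1 peaks and 3 of 4 PDX1 peaks of PP lay in WT PP peaks, but 1 of 4 MNX1 peaks did, that of the 5′UTR. PTF1A had a peak in WT PP and none in PP. Antibody, RNA input and library kit changed together between the lists and cannot be told apart from experiment.

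By position, the midpoints of 20 of the 47 peaks lay in the 3′UTR of the principal isoform, 17 in the CDS, 4 in the 5′UTR and 6 in exons of other transcripts. All 6 of the last kind were on MNX1. Midpoints of 10 peaks lay within 200 nt of the stop codon. Of the 3 homeobox genes, 8 peaks reached into the homeobox, which was placed by translating the principal CDS and aligning the conserved tryptophan of the third helix with residue 48 of the 60. Summed over separate stretches, PP, hILO, WT PP and A5-KO PP all covered 725 nt of PDX1, 275 nt of NKX6-1 and 125 nt of MNX1. A further 600 nt of MNX1 were covered in DE, PP, hILO and A5-KO PP, and 50 nt in DE, hILO, WT PP and A5-KO PP.

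DRACH was found at least once in 42 of 47 peaks, beside 89.0% to 92.9% of all peaks of a list, and the other 5 were at most 100 nt long. In PP the density was 2.02 sites per 100 nt of member peak, 1.23 on the remaining exonic bases of these genes and 2.24 over all PP peaks. In WT PP it was 1.63, 1.34 and 2.17, and in A5-KO PP 1.83, 1.31 and 2.17. In hILO the density in and outside member peaks was nearly equal, 1.55 and 1.44. A GGAC site followed by A, C or T lay in 30 of 47 peaks. It was in 10 of 12 PDX1 peaks but in 9 of 20 MNX1 peaks, and the 3′UTR peaks of MNX1 in DE, PP and hILO had none while holding 11 to 13 DRACH sites. Over all peaks the share with such a site was between 47.9% in PP and 53.7% in WT PP among these lists.

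As a backdrop, 35 other transcription factor genes of the pancreas were examined, from the progenitor factors SOX9 and GATA4 to the endocrine factors NEUROG3, PAX6 and MAFA. The number with a peak went from 13 in hPSC and 18 in DE to 26 in PP and 30 in hILO, and batch 2 had 27 in either list. Their 41 pairs from PP to hILO had a median difference of −0.0049, with 2 higher and 4 lower by the fold. From WT PP to A5-KO PP, 21 of 76 pairs on 24 genes were higher by the fold and 18 were lower, which is 27.6% and 23.7%, both below the shares over all pairs. On at least 50 input reads on both sides, 5 of 45 were higher and 8 lower. The widest differences at that depth were both on HNF4A, a regulator of endoderm genes, with −3.46 from 44430205 to 44430354 and 2.98 from 44424550 to 44428419 on chromosome 20, and the next lower value was −2.83 on ONECUT2. The PDX1, NKX6-1, MNX1 and PTF1A differences on such depth, from −2.67 to 2.42, lay inside this range.

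The antisense and neighbouring transcripts were treated apart. No member exon overlapped an exon of another gene. The lncRNA PLUT, on the strand opposite to PDX1, had 1 peak in PP and 2 in hILO, then 7 for WT PP against 3 for A5-KO PP. MNX1-AS1 had 2 in DE, 1 in PP, 2 in hILO and 2 in A5-KO PP, and MNX1-AS2 had none. The genes closest to each member were named by the Euclidean distance over the 6 lists of the log2 of scaled IP reads plus 1, among 16394 protein-coding genes. For MNX1 they were COL4A2 (2.86), MEIS2 (3.02) and CCDC92 (3.32). For NKX6-1 they included PLAGL1 (1.21) and NPNT (2.12), and for PDX1 RASGEF1B (2.74). For PTF1A, with peaks in WT PP and A5-KO PP only, ATP10B (0.11), PIK3C2G (0.14) and IL1RAP (0.17) were closest.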

How the data were processed

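m6A-seq of 24 libraries (2 IP and 2 input for each of 6 populations) was analysed from 6 peak lists. Reads were trimmed with fastp v0.20.1, aligned to GRCh38 with HISAT2 v2.1.0 keeping 1 alignment per read, and peaks were called with exomePeak2. The authors deposited IP and input read counts, the log2 enrichment and raw and adjusted p-values for each peak. The sources used here do not say if the pooled counts were summed or averaged, and values per library were not analysed here, so errors cover counting only (0.5 added to each count). All columns with sample values were mapped. Genes of interest and lists were chosen with earlier results of these data known. Named genes were the members with every peak, the 2 widest rises and falls of the transcription factor list, and the 3 nearest genes of each member. Some of the genes named by this rule are not reported here.

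Peak spans were reduced to GENCODE 44 exons (99.8% to 99.9% of peaks matched). A peak was shared when over 50% of its exonic length was covered on its strand (bedtools 2.31.1), and paired with the peak sharing most bases. The alternative offset adds to the log2 count ratio (pseudocount 1) the list's median difference from the deposited value. Overlap and error functions were tested on simulated data. Other tools were Python 3.11.15, pandas 2.3.3 and pysam 0.24.0.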

Additional observations from a re-analysis of the deposited data

How the results depend on the processing

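No paired analysis was possible because each list holds values pooled over 2 libraries per population and none per library. Leaving out a library was not possible either. The cause of the changes was not tested, except that a stricter threshold admits fewer peaks by construction. At p below 1e-05, the cutoff that the study states for calling peaks, DE kept 1 member peak, PP 10, hILO 8, WT PP 7 and A5-KO PP 9. At p below 1e-10 DE kept 1, WT PP 4 and A5-KO PP 6. With p below 1e-05 in both lists, 7 of 9 A5-KO PP peaks were found in WT PP and 2 of 7 WT PP peaks in A5-KO PP, against 30.9% and 32.7% of all such peaks, and under reciprocal overlap 4 A5-KO PP peaks were found in WT PP. With 1 offset per list the median difference was 0.37 from DE to PP, −0.83 from PP to hILO and 0.75 from WT PP to A5-KO PP (0.35, −0.81 and 0.73 at a pseudocount of 0.5), against 0.03, −0.16 and 0.61 over all pairs, and the gene level gave −0.68 from PP to hILO. Under that offset, in alternatives added after seeing the data, 5 pairs were higher and 3 lower by the fold in A5-KO PP (all pairs 41.9% and 20.5%) and 3 of 6 were lower in hILO (13.2%). Requiring a shared stretch above 50% of both peaks, also added, left 4 pairs. Of these, 2 were higher and 1 lower by the fold in A5-KO PP, and 1 of the 2 was the MNX1 peak without input reads. The share over all pairs under this rule was not computed. Among pairs whose deposited difference exceeded its counting range, signs turned for the PDX1 3′UTR pair from PP to hILO (−0.21, and −0.19 at 0.5), the PDX1 exon 1 pair (1.02 and 1.00, gene level 0.61) and the MNX1 pair from 157008601 (−0.078 and −0.097) of A5-KO PP, and at gene level for the PDX1 CDS pair of hILO (0.079) and that of A5-KO PP (0.61). Within that range, signs also turned for both MNX1 pairs from DE to PP (0.21 and 0.53, gene level 0.08) and the NKX6-1 pair from PP to hILO (−0.31, gene level −0.68). The ratio of DRACH densities in and outside peaks was 1.70 in DE, 1.63 in PP, 1.08 in hILO, 1.22 for WT PP and 1.40 for A5-KO PP. It was 1.05, 0.73, 0.64, 0.69 and 0.68 on the opposite strand, and 1.88 in WT PP for GGAC followed by A, C or T. With any overlap, 5 WT PP peaks in place of 3 were found in PP, and 10 peaks in place of 6 touched exons outside the principal isoform. The number of hILO peaks found in PP was 7 with any overlap, where the NKX6-1 peak of the CDS was added, and 5 by genomic span. The counts of peaks per list stayed within 1.5 times their value when near peaks were merged or IP/input had to reach 2.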
